A study of Mus musculus with 2 samples.

Results

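The RNA-Seq data were examined for 10 genes of the Notch pathway. These were the receptors *Notch1*, *Notch2* and *Notch3*, the ligands *Jag1*, *Jag2* and *Dll1*, the nuclear effector *Rbpj*, and the target genes *Hes1*, *Hey1* and *Heyl*. They were taken by gene symbol, and each matched 1 of the 24421 rows of the count table. The table holds 1 library of primary chondrocytes, released by collagenase from rib cartilage of newborn mice and kept for no more than 2 passages. The second of its 2 libraries is from dermal fibroblasts, also released with collagenase, from the dorsal skin of newborn mice. The digestions differed in enzyme concentration, temperature and time, and a passage limit is stated for the chondrocytes only. Neither group carries a treatment or an engineered allele according to the labels. The strain, sex and number of animals behind each library are not given in the sources used here. The counts summed to 18788599 for the chondrocytes and 17563724 for the dermal fibroblasts, and pairs of values are given in this order. In the study, the RNA-Seq comparison helped to choose among the factors that might act on enhancers.

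Notch receptors are membrane proteins that are cut when a Jagged or Delta-like ligand on a neighbouring cell pulls on them. The freed intracellular part enters the nucleus, joins the DNA-binding protein RBPJ and switches on genes of the HES and HEY families, which encode transcriptional repressors. In the developing skeleton, Notch activity is known to hold back early chondrogenic differentiation and to take part in chondrocyte maturation, and in skin it is best known from the epidermis and the hair follicle.

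The libraries fitted their labels. All 7 chondrocyte markers were over 2-fold higher in chondrocytes, and *Col2a1*, the main cartilage collagen, had 1447098 counts there and 0 in dermal fibroblasts. *Acan*, which encodes aggrecan, had 148105 and 35 counts, and *Sox9* had 5045 and 342. Of 8 dermal fibroblast markers, 7 were over 2-fold lower in chondrocytes. *Col1a1*, with the most counts of these, had 39143 and 322379. *Col3a1* had 32090 and 273385 counts, and *Pdgfra*, a receptor of fibroblasts, had 2096 and 10527. The eighth, *Lum*, had 3191 and 2881.

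Within the Notch pathway, the receptors and *Rbpj* differed less between the libraries than most ligands and targets. *Jag2* and *Dll1* were 3.81-fold and 3.11-fold higher in chondrocytes. *Jag1*, *Hes1* and *Heyl* were 2.67-fold, 3.82-fold and 4.52-fold higher in dermal fibroblasts. The remaining 5 genes lay within 2-fold. Levels are given as CPM (counts scaled to a common library total of 1000000) after TMM scaling, which divides each count by a library size adjusted so that most genes balance between the libraries. Each fold carries a 95% Clopper-Pearson interval that covers counting error only. As there was 1 library per cell type, no difference has a replicate check and no test was made. In such bulk libraries, fewer cells of a type and less RNA per cell cannot be told apart.

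A fold over 2 was used as the call. By this rule 2 of the 10 members were higher and 3 were lower in chondrocytes. Among all 13825 genes with a mean of at least 10 counts, 10.9% were higher and 15.3% were lower. For all 5 called members the whole counting interval also lay beyond 2-fold, 2 higher and 3 lower, a rule met by 7.04% and 10.7% of all genes. All 10 members passed the minimum of 10 counts. The median log2 fold of the members was 0.35, and that of all genes was 0.00.

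**Figure D1:**
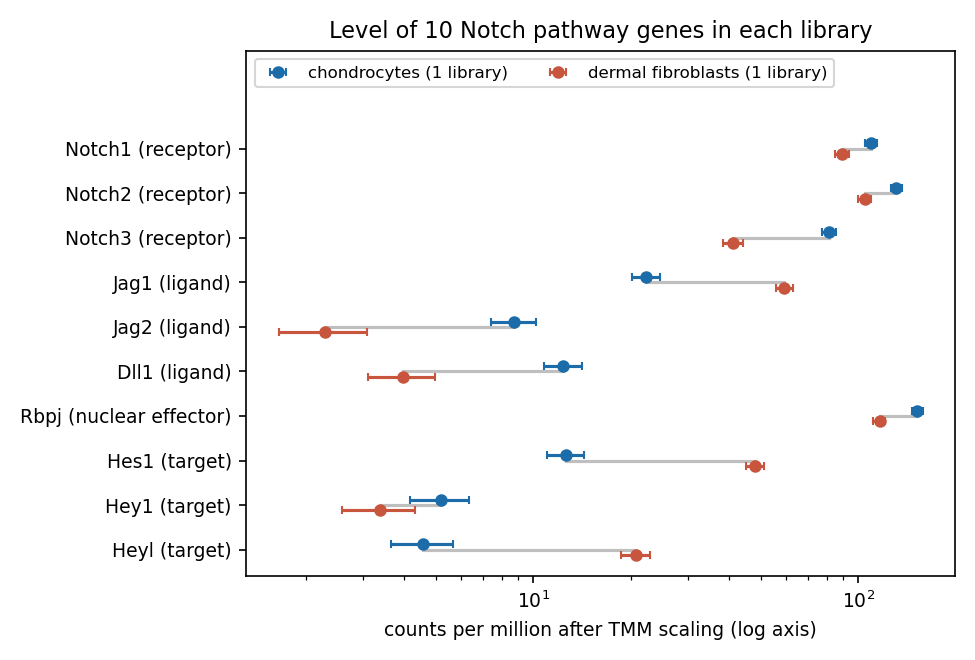
Level of each of the 10 genes in the chondrocyte library (blue) and the dermal fibroblast library (red), in CPM on a log axis, with bars for the 95% Poisson counting interval. The points of *Notch1*, *Notch2* and *Rbpj* lie close together, while those of *Jag1*, *Jag2*, *Dll1*, *Hes1* and *Heyl* are far apart.

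The 3 receptors were all higher in chondrocytes. The median log2 fold of all genes was 0.00, so about as many of all genes lay on that side as on the other. *Notch1* (GRCm38 chromosome 2, 26457902 to 26503822) had 1963 and 1640 counts, or 109.5 and 89.1 CPM. The fold was 1.23 (interval 1.15 to 1.31). *Notch2* (chromosome 3, 98013538 to 98150367) had 2346 and 1927 counts, or 130.9 and 104.7 CPM, and a fold of 1.25 (interval 1.18 to 1.33). The chondrocyte excess of these 2 receptors was nearly the same and was larger than counting error, but its size depended on the scaling. Their log2 folds of 0.30 and 0.32 became 0.16 and 0.19 with total counts, below their intervals. Scaling by *Actb* gave 0.42 and 0.44, above their intervals. *Notch3* (chromosome 17, 32120820 to 32166896), which is known from vascular smooth muscle and pericytes, had 1458 and 757 counts, or 81.3 and 41.1 CPM. It was 1.98-fold higher in chondrocytes (interval 1.81 to 2.16). Its value stood just under the 2-fold call and went past it, to log2 folds between 1.02 and 1.11, with 3 of the 5 other scalings. *Notch4*, best known from endothelium, had 30 and 24 counts.

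The ratio of one receptor to another within a library does not depend on how the libraries are scaled. As it still contains the lengths of both genes, it is compared between the libraries and not read as a ratio of levels. *Notch2* had 1.20 counts for each count of *Notch1* in chondrocytes (interval 1.13 to 1.27) and 1.18 in dermal fibroblasts (interval 1.10 to 1.26), and these intervals overlap. *Notch3* had 0.743 counts for each count of *Notch1* in chondrocytes (interval 0.694 to 0.795) and 0.462 in dermal fibroblasts (interval 0.423 to 0.503). *Notch3* therefore made up more of the receptor transcripts in chondrocytes. After division by exon length it took 33.2% of the reads per kilobase of the 4 receptors there (interval 31.9 to 34.5) and 23.8% in dermal fibroblasts (interval 22.4 to 25.2). *Notch2* took 40.9% and 46.3%, *Notch1* took 25.3% and 29.1%, and *Notch4* took 0.681% and 0.752%. The place of *Notch1* depended on the length used. With the longest transcript in place of the summed exons, its share was 33.6% in chondrocytes and 38.1% in dermal fibroblasts, and *Notch3* was then the third of the receptors in both libraries.

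The ligands lay on both sides of 2-fold. *Jag1* (chromosome 2, 137081451 to 137116520), a Jagged ligand, had 398 and 1090 counts, or 22.2 and 59.2 CPM. Dermal fibroblasts exceeded chondrocytes 2.67-fold (interval 2.38 to 2.998). *Jag2* (chromosome 12, 112907803 to 112929812), the other Jagged ligand, had 156 and 42 counts, or 8.70 and 2.28 CPM, and was 3.81-fold higher in chondrocytes (interval 2.70 to 5.50). *Dll1* (chromosome 17, 15367354 to 15376932), a Delta-like ligand needed for somite patterning, had 221 and 73 counts, or 12.3 and 3.97 CPM. It was 3.11-fold higher in chondrocytes (interval 2.38 to 4.11). The chondrocyte library was thus the lower one for *Jag1* and the higher one for *Jag2* and *Dll1*. The remaining canonical ligands were close to absent, with 3 and 10 counts for *Dll4*, the endothelial Delta-like ligand, and 0 and 0 for *Dll3*. A count of 0 was taken to allow up to 3 counts in a library, a one-sided limit for counting error.

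Set against each other within a library, *Jag1* had 2.55 counts for each count of *Jag2* in chondrocytes (interval 2.11 to 3.09) and 26.0 in dermal fibroblasts (interval 19.1 to 36.2). The ratio was 10.2 times larger in dermal fibroblasts. *Jag1* had 1.801 counts for each count of *Dll1* in chondrocytes and 14.9 in dermal fibroblasts. *Jag2* to *Dll1* was 0.706 (interval 0.571 to 0.870) and 0.575 (interval 0.384 to 0.852), so that these ligands kept their proportion within counting error. Per kilobase of exon, *Jag1* took 86.1% of the ligand reads in dermal fibroblasts (interval 83.7 to 88.2) and 42.7% in chondrocytes (interval 39.2 to 46.2). *Dll1* took 32.8% in chondrocytes and 7.96% in dermal fibroblasts, and *Jag2* took 24.1% and 4.77%. The ligand reads of dermal fibroblasts thus came mostly from a single gene, and those of chondrocytes were divided among 3.

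Since the ligands lay in opposite directions, their promoters are shown from RefSeq (GRCm38.p6), which held 7 of the 10 members. *Hes1*, *Hey1* and *Heyl* were not matched. Each window runs from 250 bases before to 50 bases after an annotated start site, 5′ to 3′ on the strand of the gene, here the minus strand for all 3. Capitals mark the letters CACGCG or their complement CGCGTG, a class C site of the kind HES and HEY proteins are known to bind. The windows are chr2:137116471-137116770 for *Jag1*, chr12:112929446-112929745 for *Jag2* and chr17:15376883-15377182 for *Dll1*, the last being the more upstream of its 2 windows.
Jag1: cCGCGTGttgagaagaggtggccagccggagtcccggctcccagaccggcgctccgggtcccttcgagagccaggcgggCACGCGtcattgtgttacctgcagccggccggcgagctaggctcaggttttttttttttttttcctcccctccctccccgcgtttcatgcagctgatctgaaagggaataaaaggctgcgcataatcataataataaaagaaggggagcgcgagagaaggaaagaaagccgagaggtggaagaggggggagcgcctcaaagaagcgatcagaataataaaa
Jag2: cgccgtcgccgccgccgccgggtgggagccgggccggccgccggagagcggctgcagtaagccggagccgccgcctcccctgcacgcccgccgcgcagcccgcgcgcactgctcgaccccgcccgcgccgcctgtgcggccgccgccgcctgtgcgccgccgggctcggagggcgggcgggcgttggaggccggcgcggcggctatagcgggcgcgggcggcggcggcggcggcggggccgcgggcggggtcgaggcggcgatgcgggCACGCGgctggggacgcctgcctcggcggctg
Dll1: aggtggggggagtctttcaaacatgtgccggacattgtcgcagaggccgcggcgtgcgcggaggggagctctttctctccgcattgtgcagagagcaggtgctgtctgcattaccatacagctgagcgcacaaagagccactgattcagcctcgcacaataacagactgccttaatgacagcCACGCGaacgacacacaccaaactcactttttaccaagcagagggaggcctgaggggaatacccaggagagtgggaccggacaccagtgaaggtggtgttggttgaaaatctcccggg
Counted from the start site, these letters begin at positions -249 and -171 of *Jag1*, at position 19 of *Jag2* and at position -68 of *Dll1*.

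Class C letters thus occurred in the window of the ligand lower in chondrocytes and in those of both ligands that were higher. The whole *Jag2* window lay inside the annotated span of its gene, and its class C letters began after the start site. The *Jag2* match is therefore not in upstream sequence. The other window of *Dll1*, chr17:15375774-15376073 with 62.7% C and G, did not hold the class C letters. They also occurred in the window of *Notch2*, at position -42, and in 4 of the 9 windows of the members in all. Of all 32851 promoter windows, 9.27% held them on either strand. The windows also differed in base composition. C and G made up 55.7% of the *Jag1* window, 86.0% of the *Jag2* window and 56.3% of the *Dll1* window, against a median of 52.7%. Among the 9690 windows with at least 60% C and G, 22.9% held the class C letters. The core of the RBPJ site, TGGGAA or its complement TTCCCA, was found in both windows of *Rbpj*, which overlap and share 1 of the matches, and in no other member window. It was found in 25.6% of all windows. The E-box CACGTG occurred in no member window and in 7.15% of all. The N-box CACNAG, read on both strands, occurred in 4 member windows, those of *Notch1*, *Notch2*, *Notch3* and *Dll1*, and in 42.5% of all. The letters of each motif exclude those of the others at the same position and strand, although neighbouring matches may share bases. A match describes the sequence only.

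*Rbpj* (chromosome 5, 53555779 to 53657445) encodes the DNA-binding protein through which all 4 receptors act. It had 2721 and 2139 counts, or 151.8 and 116.2 CPM. The fold was 1.31 (interval 1.23 to 1.38). *Rbpj* was thus higher in chondrocytes by about the same factor as *Notch1* and *Notch2*, and their intervals overlap.

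Among the targets, *Hes1* and *Heyl* were lower in chondrocytes and *Hey1* was not. *Hes1* (chromosome 16, 30065357 to 30067796), the most widely used readout of Notch activity, had 226 and 886 counts, or 12.6 and 48.1 CPM. Dermal fibroblasts exceeded chondrocytes 3.82-fold (interval 3.29 to 4.44). *Heyl* (chromosome 4, 123233556 to 123249870), a HEY repressor known from vascular smooth muscle and muscle stem cells, had 82 and 381 counts, or 4.57 and 20.7 CPM. Dermal fibroblasts exceeded chondrocytes 4.52-fold (interval 3.56 to 5.82), the largest fold of the 10. *Hey1* (chromosome 3, 8663359 to 8667038) had 93 and 62 counts, or 5.19 and 3.37 CPM, and was 1.54-fold higher in chondrocytes (interval 1.11 to 2.16). Its direction was opposite to that of the other targets, and its interval reached past 2-fold. *Hey1* had the fewest counts of the 10 over both libraries and is the least precisely measured of the targets.

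The ratios within a library showed the same division. *Hes1* had 2.43 counts for each count of *Hey1* in chondrocytes (interval 1.90 to 3.13) and 14.3 in dermal fibroblasts (interval 11.04 to 18.8). *Heyl* had 0.882 counts for each of *Hey1* in chondrocytes (interval 0.647 to 1.20) and 6.15 in dermal fibroblasts (interval 4.69 to 8.17). *Hes1* to *Heyl* was 2.76 in chondrocytes (interval 2.13 to 3.59) and 2.33 in dermal fibroblasts (interval 2.06 to 2.63), intervals that overlap. Per kilobase, *Hes1* took 64.8% of the reads of the 4 HES and HEY targets in chondrocytes and 80.3% in dermal fibroblasts. *Hey1* took 24.7% and 5.19%, *Heyl* took 9.37% and 13.7%, and *Hey2*, with 5 and 11 counts, took the rest.

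**Figure D2:**
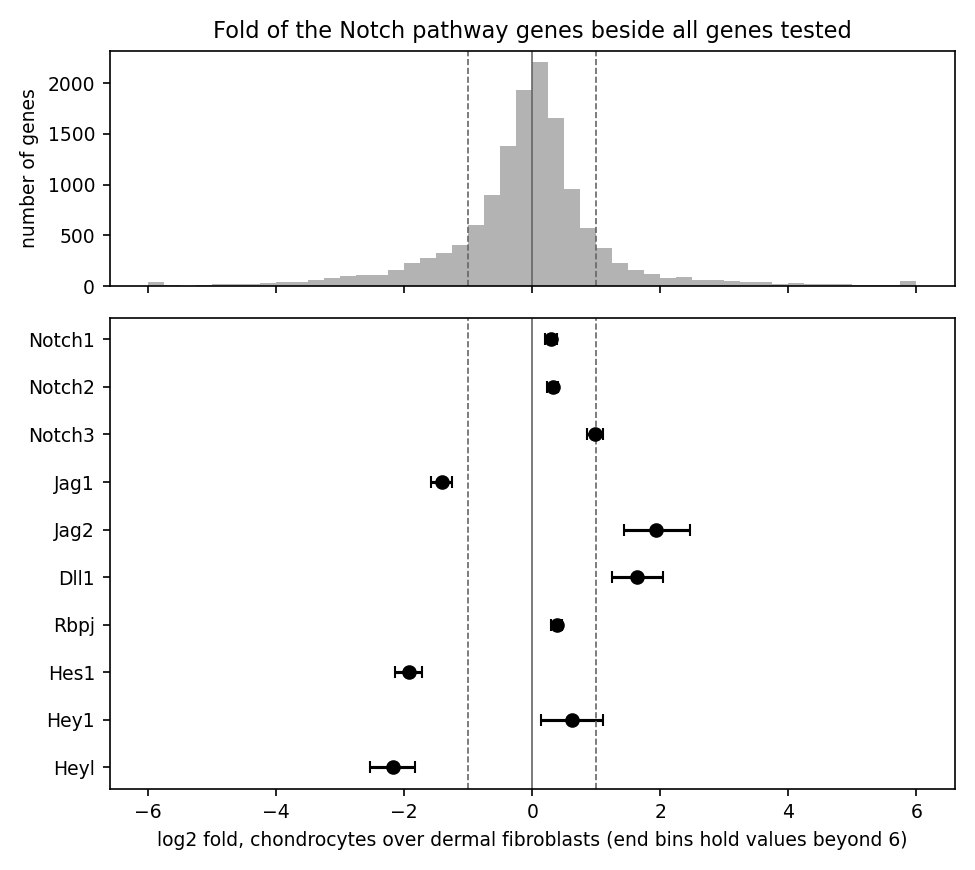
The upper panel shows the number of genes by log2 fold of chondrocytes over dermal fibroblasts for all 13825 genes tested, and the lower panel shows the 10 members with their 95% counting intervals on the same axis. Dashed lines mark 2-fold. *Jag1*, *Hes1* and *Heyl* lie left of the lower line, *Jag2* and *Dll1* lie right of the upper line, and *Notch3* lies on it.

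Ordered by RPKM, which is the CPM divided by the exon length in kilobases, the members ranked differently in the libraries. In chondrocytes *Rbpj* stood first at 26.1 RPKM, followed by *Notch2* at 12.5, *Notch3* at 10.1, *Notch1* at 7.69, *Hes1* at 6.19, *Jag1* at 3.81, *Dll1* at 2.92, *Hey1* at 2.36, *Jag2* at 2.15 and *Heyl* at 0.895. The neighbours *Dll1* and *Hey1*, and *Hey1* and *Jag2*, had overlapping counting intervals. In dermal fibroblasts *Hes1* stood first at 23.6 RPKM, followed by *Rbpj* at 19.97, *Jag1* at 10.2, *Notch2* at 9.96, *Notch1* at 6.26, *Notch3* at 5.11, *Heyl* at 4.05, *Hey1* at 1.53, *Dll1* at 0.940 and *Jag2* at 0.563. *Jag1* and *Notch2* could not be ordered by their intervals there, nor could *Hey1* and *Dll1* or *Dll1* and *Jag2*. *Hes1* was thus above every receptor in dermal fibroblasts and below all 3 in chondrocytes, with the summed exon length and with the longest transcript alike, although the intervals of *Hes1* and *Notch3* in chondrocytes overlapped with the longest transcript.

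Summed per kilobase, the HES and HEY targets amounted to 0.313 of the receptors in chondrocytes (interval 0.283 to 0.347) and 1.37 in dermal fibroblasts (interval 1.29 to 1.46). The ligands amounted to 0.293 of the receptors in chondrocytes (interval 0.271 to 0.316) and 0.549 in dermal fibroblasts (interval 0.515 to 0.585). *Hes1* had 0.0831 counts for each count of *Rbpj* in chondrocytes (interval 0.0722 to 0.0952) and 0.414 in dermal fibroblasts (interval 0.383 to 0.448). These ratios involve no scaling between the libraries. The direction for the ligands rested on *Jag1*. Without it, the ligands amounted to 0.168 of the receptors in chondrocytes (interval 0.151 to 0.186) and 0.0765 in dermal fibroblasts (interval 0.0635 to 0.0914), the opposite direction. Without *Hes1*, the targets amounted to 0.110 (interval 0.0945 to 0.128) and 0.270 (interval 0.245 to 0.298), the same direction as with it.

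**Figure D3:**
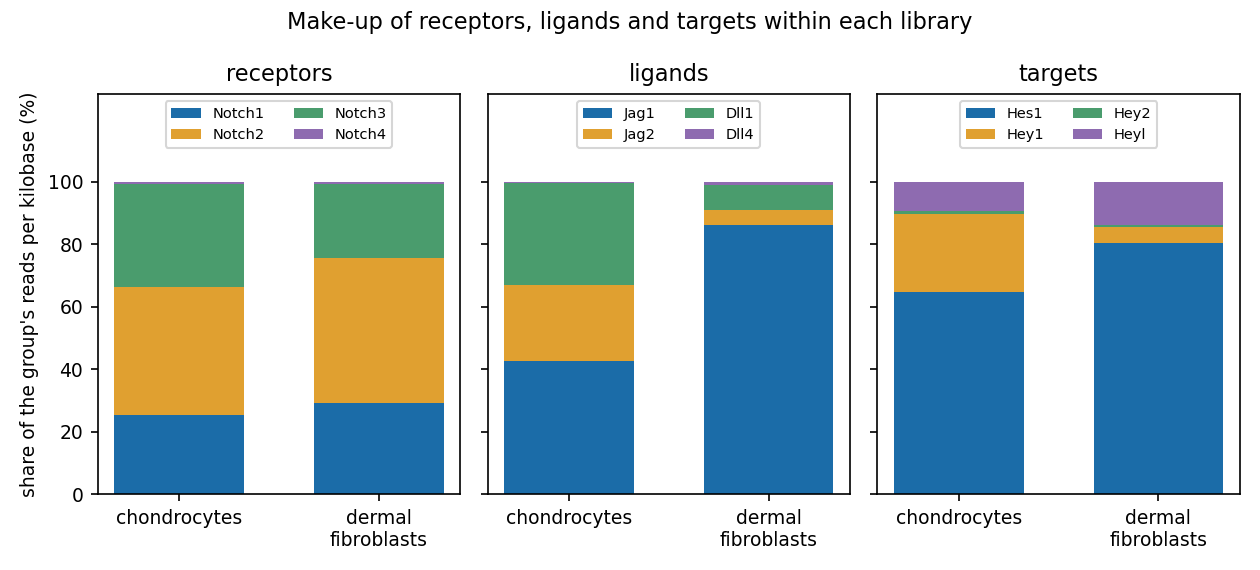
Share of each gene in the summed reads per kilobase of its group, in percent, for receptors, ligands and HES and HEY targets in each library, without error bars. The *Jag1* share of the ligands is 42.7% in chondrocytes and 86.1% in dermal fibroblasts, and the *Hey1* share of the targets is 24.7% and 5.19%.

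The other genes of the pathway were taken from a list of 67 genes grouped by role, of which 57 passed the minimum of 10 counts on average. Of these 57, 7 were over 2-fold higher and 7 over 2-fold lower in chondrocytes, with 43 within 2-fold and a median log2 fold of -0.13. These are 12.3% in each direction and 75.4% within 2-fold, against 10.9% higher, 15.3% lower and 73.9% within 2-fold over all genes. The whole interval lay beyond 2-fold for 5 genes that were higher and 3 that were lower, or 8.77% and 5.26%, against 7.04% and 10.7% of all genes. *Nrarp*, counted as lower by both rules, and *Dtx1*, counted as lower by the first, passed the minimum only through their dermal fibroblast counts. The same minimum was applied to all genes.

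Of 3 ligand-like proteins, 2 (66.7%) were over 2-fold higher in chondrocytes, as were 10.9% of all genes. *Dlk1*, a membrane protein related to the Delta ligands that lacks their receptor-activating domain, had 22110 and 5106 counts and was 4.45-fold higher in chondrocytes (interval 4.31 to 4.59). Its relative *Dlk2* had 662 and 22 counts and was 30.9-fold higher (interval 20.2 to 49.7). The span of *Dlk2* shares 52 bases with that of *Abcc10*, which had 253 and 187 counts. *Dlk1* and *Dlk2* thus lay on the side of *Jag2* and *Dll1*. The third ligand-like gene, *Dner*, had 45 and 81 counts.

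Among the enzymes that process the receptors, all 4 glycosyltransferases that passed and 9 of the 10 proteases lay within 2-fold, as did 73.9% of all genes. *Pofut1*, which adds the fucose that ligand binding needs, had 1196 and 1363 counts. *Furin*, which cuts the receptor precursor, had 3132 and 3282. The exception, *Aph1c*, a γ-secretase subunit with a close paralog in *Aph1b*, had 58 and 28 counts, and the reads of such paralogs may be divided uncertainly. *Aph1c* and the genes *Lfng*, *Adam10*, *Dtx1*, *Dtx4*, *Maml3*, *Kat2b*, *Rita1*, *Tle2*, *Tle3*, *Dner*, *Erg* and *Cspg4* are named after their values were seen. *Lfng*, a fringe enzyme that tunes which ligands a receptor answers, had 116 and 223 counts, and *Adam10*, the protease that makes the ligand-dependent cut, had 1490 and 2970. Both were lower in chondrocytes but within 2-fold, at 0.534 and 0.515 of the dermal fibroblast level. *Mfng*, another fringe enzyme, had 2 and 16 counts and did not pass the minimum.

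Of 15 ubiquitin ligases and endocytic adaptors, 1 was over 2-fold higher and 3 were over 2-fold lower in chondrocytes. These are 6.67% and 20%, against 10.9% and 15.3% of all genes. *Neurl1b*, a Neuralized ligase that acts on Notch ligands, had 75 and 22 counts and was 3.50-fold higher (interval 2.15 to 5.92). *Dtx3l*, of the Deltex family, had 80 and 725 counts and was 8.82-fold more abundant in dermal fibroblasts (interval 6.997 to 11.3). *Dtx4* had 198 and 456 counts and *Dtx1* had 6 and 14. The interval of *Dtx1*, 0.139 to 1.22 for chondrocytes over dermal fibroblasts, includes no change. *Nedd4*, with the most counts in this role, had 36814 and 35791 counts.

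Of 8 coactivators, 1 was over 2-fold higher and 1 lower in chondrocytes, 12.5% each way against 10.9% and 15.3% of all genes. *Maml3*, a Mastermind protein of the RBPJ complex, was the higher one with 187 and 89 counts. The acetyltransferase gene *Kat2b* was the lower one with 273 and 606. *Ep300*, the coactivator with the most counts, had 1542 and 1919 counts. Of 14 corepressors, 2 were over 2-fold higher and 2 lower, 14.3% each way against 10.9% and 15.3% of all genes. *Tle1* and *Tle4* encode Groucho proteins, which HES repressors recruit. *Tle1* had 908 and 242 counts and was 3.85-fold higher in chondrocytes (interval 3.34 to 4.46), and *Tle4* had 371 and 152 and was 2.51-fold higher (interval 2.07 to 3.05). *Tle5*, a short Groucho protein listed under its older symbol *Aes*, had 1641 and 5293 counts and was 3.14-fold more abundant in dermal fibroblasts (interval 2.97 to 3.32). *Tle2* had 408 and 812 counts and *Tle3* had 998 and 1794, both within 2-fold. The Groucho family therefore held genes in both directions. *Rita1*, which encodes a protein that exports RBPJ from the nucleus, had 80 and 192 counts.

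Of 6 further target genes, only *Nrarp* passed the minimum. *Nrarp*, a feedback inhibitor induced by Notch, had 1 and 38 counts, a scaled ratio of 37.0 in favour of dermal fibroblasts with an interval from 6.25 to 1499. With the floor of 3 counts that the other folds carry, the ratio was 12.3. *Nrarp* passed the minimum only through its dermal fibroblast counts, so its direction is not set beside those of *Hes1*, *Heyl* and *Hey1*. *Hes2* and *Hes5* had 0 counts in both libraries, *Hes3* had 1 and 0, and *Hes7* had 0 and 1. *Hes6*, a HES relative that is not a standard Notch target, had 774 and 533 counts, and *Rbpjl*, a paralog of *Rbpj*, had 12 and 0.

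**Figure D4:**
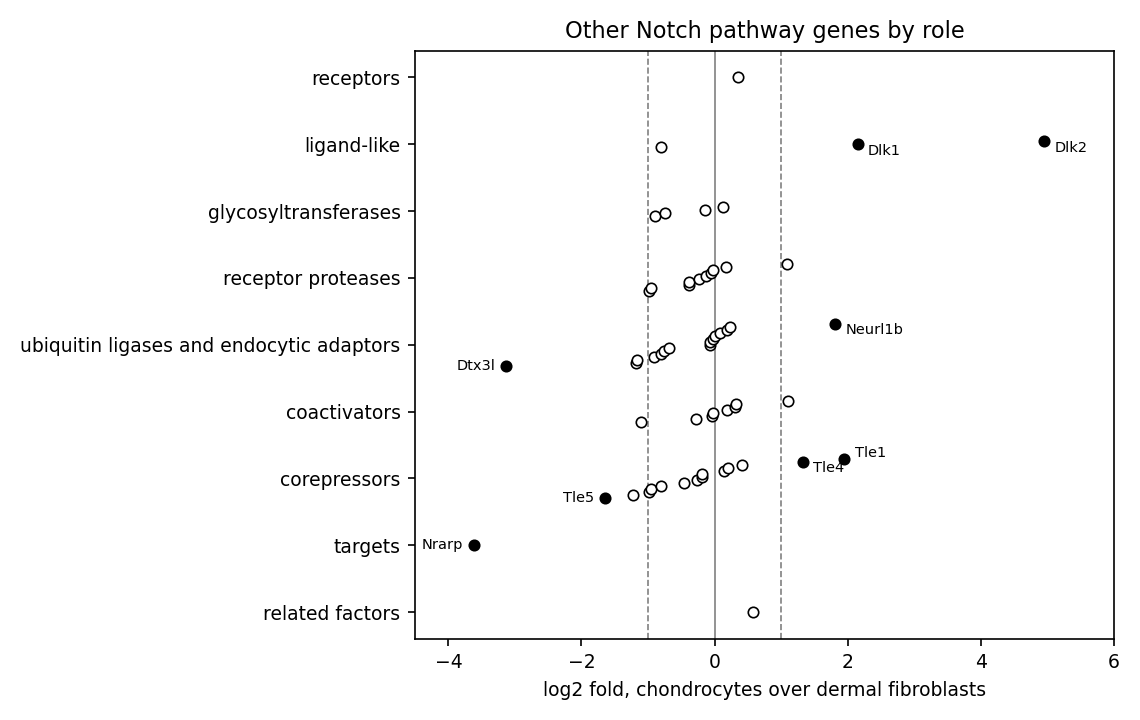
Log2 fold of chondrocytes over dermal fibroblasts for the 57 other pathway genes with a mean of at least 10 counts, by role. Filled points are the 8 genes whose whole counting interval lies beyond 2-fold (dashed lines), and *Nrarp* is drawn with its single chondrocyte count raised to the floor of 3 counts.

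Markers of other cell types also differed between the libraries, and their part in the Notch values was not tested. All 7 satellite cell and myoblast genes were over 2-fold higher in chondrocytes, the direction of *Jag2* and *Dll1* and the reverse of that of *Heyl*. Their summed level was 704 CPM in chondrocytes and 247 CPM in dermal fibroblasts. *Des*, with the most counts, had 3790 and 1655 counts, and the defining markers *Pax7*, *Myf5* and *Myod1* had 120 and 4, 36 and 1, and 2328 and 496. Of 9 endothelial genes, 7 were over 2-fold lower in chondrocytes and 1 was higher, with a summed level of 24.9 and 56.2 CPM. *Kdr* had 70 and 276 counts, *Cdh5* had 68 and 198, and *Pecam1* had 70 and 120. The exception was *Erg*, which cartilage is also known to express, with 159 and 20.

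Of 8 pericyte and vascular smooth muscle genes, 5 were over 2-fold lower in chondrocytes, the direction of *Heyl* and *Jag1* and the reverse of that of *Notch3*, and 1 was higher. Their summed level was 857 and 1338 CPM. *Pdgfrb*, which dermal fibroblasts also express, took most of the dermal fibroblast reads with 3719 and 19453 counts, while *Rgs5* had 48 and 33, *Myh11* had 140 and 707, and *Kcnj8* had 3 and 27. *Cspg4*, the gene that was higher, had 10824 and 2976 and took most of the chondrocyte reads. The direction of the summed level rested on *Pdgfrb*, at 207 and 1057 CPM, and turns without it, as *Cspg4* had 604 and 162 CPM. Of 8 keratinocyte genes, 5 were over 2-fold lower in chondrocytes and none was higher, with a summed level of 8.98 and 255 CPM. *Krt14* had 17 and 1939 counts, *Krt5* had 1 and 1693, and *Trp63* had 42 and 70. *Sox10*, a marker of Schwann cells and melanocytes, had 25 and 310 counts, also the direction of *Hes1*, *Heyl* and *Jag1*.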

How the data were processed

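The authors prepared stranded mRNA libraries, sequenced 75 bp single-end reads and mapped them to mm10 with TopHat2 2.0.13, Bowtie2 2.2.3 and SAMtools 0.1.19 (submitters' processing notes). The deposited values are raw counts, 1 row per symbol, without normalization. The counting program, its annotation and its strand setting are not given in the sources used here.

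Counts were scaled by TMM (edgeR 4.0.16, R 4.3.3), with factors of 0.954 for chondrocytes and 1.05 for dermal fibroblasts. For folds, counts under 3 were set to 3. Calculations used pandas 2.3.3, scipy 1.17.1 and numpy 2.4.6 under Python 3.11.15 and were tested on simulated data. Clopper-Pearson and Poisson intervals describe counting error alone. They treat each read as an independent molecule, which cannot be known without molecular identifiers, so they may be too narrow. An interval of a share within a group holds the proportions of the other genes fixed. Exon lengths came from GENCODE vM1 (NCBIM37), used for lengths only, and positions from RefSeq GRCm38.p6, the build of mm10. The median-of-ratios factors of DESeq2 1.42.0, total counts, the upper quartile and other alternatives were tried. Of the other pathway genes, the most abundant of each role and those with the whole interval beyond 2-fold were named, and of each marker list the first 3 genes and the most abundant. Some genes that this rule covers, and the rest of the Schwann cell and melanocyte list, are not reported here. With 2 libraries, no gene was named for likeness of pattern. The members and lists were chosen with earlier results of these data known.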

Additional observations from a re-analysis of the deposited data

How the results depend on the processing

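No paired analysis was possible because there was a single library per cell type, and no library could be left out. The alternatives were 5 scalings, floors of 1 and 10 counts and a pseudocount of 1. The floors could not change a member, since the lowest member count was 42, and a scaling shifts all genes alike, by -0.14 to 0.12 on the log2 scale. No member changed direction under the scalings or the pseudocount, and *Jag2*, *Dll1*, *Jag1*, *Hes1* and *Heyl* kept their side of 2-fold. *Notch3* ranged from 1.8-fold to 2.16-fold. Total counts lowered the median log2 fold of all genes to -0.14 and that of the members from 0.35 to 0.22, and gave 5 other pathway genes higher and 13 lower in chondrocytes in place of 7 and 7, against 9.24% higher and 17.4% lower of all genes. Scaling by *Actb* raised these medians to 0.12 and 0.48, so that the members moved with all genes. With a fold over 1.5, 4 members were higher and 3 lower, and 7 other pathway genes were higher and 19 lower, against 19.2% higher and 23.7% lower of all genes. With a fold over 4, 0 members were higher and 1 was lower, and 2 other pathway genes were higher and 2 lower, against 4.57% and 6.26% of all genes. With a mean of at least 100 counts, 1 member was higher, as *Jag2* had a mean of 99 counts, and 3 were lower, while 5 other pathway genes were higher and 5 lower, against 8.06% and 12.1% of all genes. The *Notch3* share of receptor reads was 29.4% in chondrocytes and 20.7% in dermal fibroblasts with the longest transcript, and 25.15% and 17.41% without division by length. The ligand to receptor ratio in dermal fibroblasts was 0.501 with the longest transcript. Without division by length it was 0.134 in chondrocytes and 0.279 in dermal fibroblasts. Without *Jag1*, a choice made after seeing the data, it was 0.168 and 0.0765, which turns the direction.

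With 1 library per cell type, variation between animals and cultures was not measured. *Jag2*, *Dll1*, *Hey1* and *Heyl* had fewer than 100 counts in at least 1 library, which sets the width of their intervals. Annotated noncoding RNAs overlap the spans of *Notch1*, *Notch2*, *Notch3*, *Jag2* and *Dlk2*, and protein-coding genes overlap *Hey1* and *Dlk2*. Reads of overlapping genes cannot be told apart if the counting ignored the strand. A share or an order of levels also depends on the gene length, which was taken from another genome build.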

Other observations

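A list of macrophage markers belongs to no comparison above. All 7 genes had more than 3 counts in each library, 1 of them was over 2-fold lower in chondrocytes and none was higher, and their summed level was 114 and 181 CPM. *Lyz2* had 1046 and 1639 counts, *Csf1r* 160 and 430, *Cd68* 423 and 600 and *Ptprc* 50 and 76.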
